A study of Mus musculus with 6 samples.

Results

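Selenbp1, Selenbp2 and Tmem87a were examined because Selenbp1 and Tmem87a stood far apart between the 2 kinds of control hair bulb in a study of Notch1 loss. Every probe set (a group of short probes for 1 transcript) whose annotated symbol was Selenbp1, Selenbp2 or Tmem87a was taken, which gave 3 of the 45101 probe sets on the array and 2 of 18194 named genes: 2 probe sets for Selenbp1, 1 for Tmem87a and none under the symbol Selenbp2. All 3 passed the filter on dim probe sets. The question was whether bulbs without Notch1 followed one kind of control or the other at these genes.

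Total RNA from mouse hair follicle bulbs at postnatal day 9 was measured on 6 one-colour oligonucleotide arrays, 2 in each of 3 groups. The emN1 bulbs came from a skin area in which Notch1 was deleted in the embryo and had no functional Notch1. The anN1 bulbs came from an area deleted only in anagen, the growth phase of the follicle, and still had functional Notch1, so both carried a deletion. Bulbs of wild-type skin were the remaining group. Either anN1 or wild-type can serve as the control for emN1. The labels call the replicates biological. The sources used here name no strain, sex, deleting transgene or number of animals for any group, so p-values measure only the spread between these arrays, and a difference in genetic background cannot be told apart from the group. Array set 1 held emN1 replicate 1 and anN1 replicate 1, and array set 2 held the other 4 arrays. Markers of the labelled tissue were present: all 9 measured genes of hair matrix, shaft and inner root sheath were above background on at least 1 array. Among them were Krt71, Krt27 and Tchh of the inner root sheath, the layers around the growing shaft. The summed signal of the 9 was 341057 to 349447 units in emN1, 316577 to 352900 in anN1 and 313935 to 323612 in wild-type. Krt71 and Krt27 had the highest signals and weigh most in that sum.

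Selenbp1 encodes a cytosolic protein that binds selenium and, in human and mouse, oxidises methanethiol, a volatile sulphur compound, to hydrogen sulphide and other products. Selenbp2 is its close relative in the mouse and was first described as a liver protein that binds acetaminophen. Tmem87a encodes a membrane protein of the Golgi apparatus that crosses the membrane several times. None of these genes is a textbook marker of a hair follicle layer.

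Selenbp1 and Selenbp2 lie close together on chromosome 3, 228676 bases apart, with 9 listed genes between them (GRCm38.p6). The 250 bases before each start site are shown for the similarity of the pair upstream of the genes and for their CG pairs. Their part in the levels of the members was not tested. These bases lie outside the transcripts and say nothing of what the probes bind. Over 230 aligned positions, 220 were identical (95.7%), and Selenbp2 had 12 further bases with no partner. The aligned stretches from RefSeq, GRCm38.p6, are given on the plus strand for Selenbp1 at chr3:94932842-94933071 and for Selenbp2 at chr3:94693330-94693571, with capitals at the bases that differ or have no partner.
Selenbp1: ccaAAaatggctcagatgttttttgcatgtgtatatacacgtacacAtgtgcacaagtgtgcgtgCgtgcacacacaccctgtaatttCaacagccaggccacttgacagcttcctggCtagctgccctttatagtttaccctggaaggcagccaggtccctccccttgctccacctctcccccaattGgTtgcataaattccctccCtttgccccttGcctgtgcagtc
Selenbp2: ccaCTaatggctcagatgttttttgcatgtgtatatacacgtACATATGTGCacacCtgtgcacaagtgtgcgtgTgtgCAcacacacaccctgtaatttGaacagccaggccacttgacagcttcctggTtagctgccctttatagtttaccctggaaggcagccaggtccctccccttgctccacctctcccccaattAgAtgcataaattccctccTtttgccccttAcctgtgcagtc
One probe set has as its target a transcript that RefSeq lists under Selenbp1, and is called the Selenbp1-targeted probe set here. The other is annotated as Selenbp1, but RefSeq lists its target transcript under Selenbp2, and it is called the Selenbp2-targeted probe set. Its signal could therefore come from either gene, and with no probe set of its own Selenbp2 was not measured apart from Selenbp1. Whether Selenbp2 adds signal at the Selenbp1-targeted probe set was not tested. Levels given for Selenbp1 are therefore those of its probe sets. Tmem87a lies on chromosome 2, and the 250 bases before its start, on the minus strand at chr2:120404117-120404366, are shown with CG pairs in capitals.
Tmem87a: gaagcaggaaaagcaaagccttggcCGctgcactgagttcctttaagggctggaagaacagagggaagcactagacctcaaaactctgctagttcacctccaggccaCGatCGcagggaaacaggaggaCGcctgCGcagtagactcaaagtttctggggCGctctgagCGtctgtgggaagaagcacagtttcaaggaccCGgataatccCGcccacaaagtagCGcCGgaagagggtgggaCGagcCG
It held 13 CG pairs, against 4 and 2 in the 250 bases before Selenbp1 and Selenbp2 and a median of 6 over 32851 promoters in the RefSeq table. As many CG pairs or fewer were found in 70.6% of those promoters for Tmem87a, 44.4% for Selenbp1 and 29.0% for Selenbp2.

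At Selenbp1, emN1 bulbs had the low level of anN1 bulbs and not the high level of wild-type bulbs. In emN1 the Selenbp1-targeted probe set read 554 signal units in replicate 1 and 295 in replicate 2. It read 931 and 467 in anN1, and 9800 and 14226 units in wild-type. Both emN1 and both anN1 values lay far under the lower wild-type value, while emN1 and anN1 overlapped. The Selenbp2-targeted probe set read 472 and 265 units in emN1, 717 and 402 units in anN1, and 7096 and 9932 units in wild-type. The same arrays were high and low in both probe sets. Their profiles, centred on the mean of the 6 arrays, differed by a root mean square of 0.14 log2 units, and the Selenbp1-targeted one was 1.12 to 1.43 times as bright on each array. In rank order among all probe sets of an array, it stood at percentiles 64.1 and 52.1 in emN1, 70.4 and 60.4 in anN1, and 94.8 and 96.5 in wild-type.

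At Tmem87a the wild-type arrays were again the high ones. Its probe set read 322 and 225 units in emN1, 89.2 and 143 units in anN1, and 3482 and 5586 units in wild-type. The 3 groups did not overlap, with anN1 lowest and emN1 next. Both emN1 values above both anN1 values, as here, was found at 15.4% of all probe sets. The limit of background was set at 112, the 95th percentile of 120 values read from 20 undetected bacterial control probe sets. The anN1 replicate 1 value lay under it, so that the size of every Tmem87a difference that uses it is uncertain. All Selenbp1 values and both emN1 values of Tmem87a were above it.

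**Figure D1:**
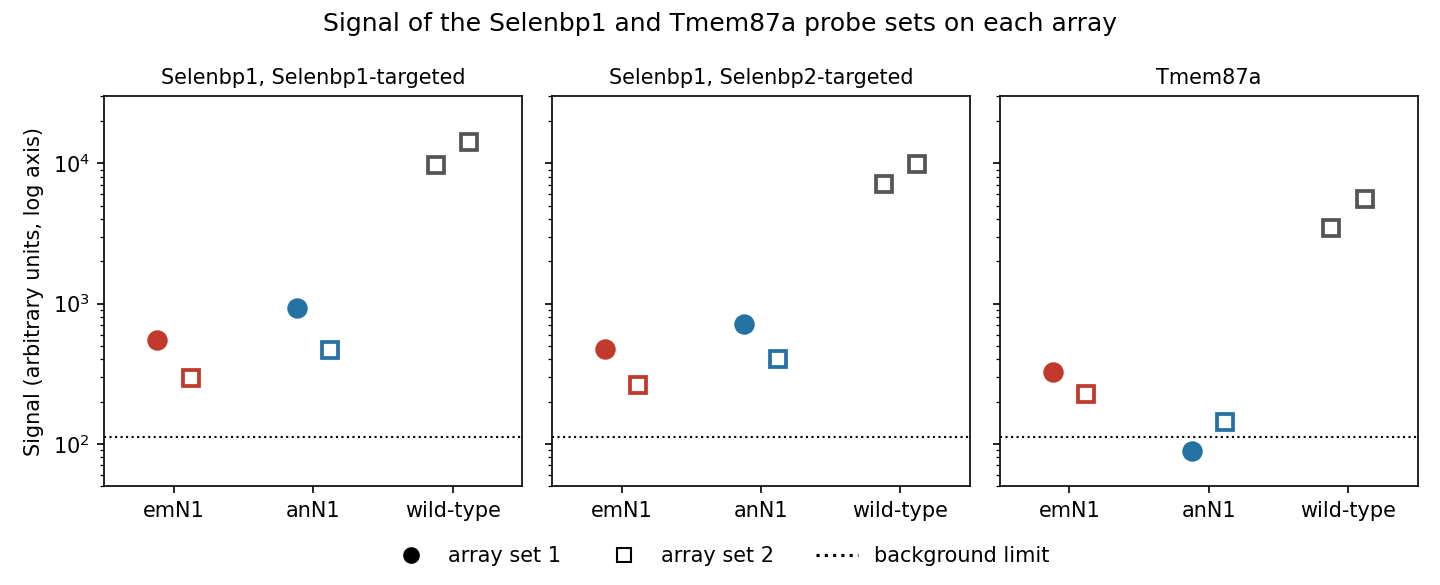
Signal (log axis, arbitrary units) of the 3 probe sets on each array, 1 point per array, filled for array set 1 and open for array set 2; the dotted line is the background limit of 112. In each panel both wild-type arrays lie above every emN1 and anN1 array, and for Selenbp1 the emN1 and anN1 values overlap.

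Differences were taken on the scale log2(signal + 17.8), in a linear model across 27022 probe sets with array set as a term, which understates changes of dim probe sets. The genes had been chosen on the difference between anN1 and wild-type, so that difference is described and not tested. It was -4.58 (SE 0.26) for the Selenbp1-targeted probe set, -4.32 (SE 0.26) for the Selenbp2-targeted one and -5.05 (SE 0.43) for Tmem87a. Counting the members, 4 probe sets had a difference at least as low as Tmem87a, 5 as the Selenbp1-targeted probe set and 6 as the Selenbp2-targeted one. Of all probe sets, 0.074% passed limma at an adjusted p under 0.05 between anN1 and wild-type (20 in number), and at 16.2% both anN1 arrays lay under both wild-type arrays, as they did at all 3 members.

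Against wild-type bulbs, emN1 bulbs were lower in both genes by limma with Benjamini-Hochberg adjustment over all 27022 probe sets. The emN1 arrays had no part in the difference on which the genes were chosen, but the wild-type arrays did. Earlier results of these data were also known when the genes were chosen. The p-values and calls of this comparison are therefore not independent of that choice and are given as description. The Selenbp1-targeted signal fell by 5.26 log2 units in emN1 (SE 0.26; 38.4-fold; limma adjusted p = 3.00e-04). The Selenbp2-targeted signal, which could come from either gene, fell by 4.90 (SE 0.26; 29.8-fold; limma adjusted p = 0.000399). Tmem87a fell by 3.92 (SE 0.43; 15.1-fold; limma adjusted p = 0.00747). All 3 passed, and of all probe sets 2.16% passed in either direction and 0.629% were called lower. Since the wild-type arrays also served in choosing the genes, nothing is read from that contrast of shares. Both emN1 arrays lay under both wild-type arrays at each probe set, as they did at 22.6% of all probe sets. Within array set 2 alone, which holds all wild-type arrays, the differences were -5.24, -4.90 and -4.19. The Selenbp1 calls were lost without emN1 replicate 2 (limma adjusted p = 0.181 and 0.209). The Tmem87a call was lost without any one of the emN1 or anN1 arrays and in array set 2 alone. Its difference was -3.11 without emN1 replicate 2. Without emN1 replicate 1 or either anN1 array it was -4.19, the value of array set 2 alone, so these fits are not separate checks. Limma without an intensity trend in the variance gave no call for either gene (adjusted p = 0.0917, 0.0917 and 0.169).

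Between emN1 and anN1 bulbs the differences were far smaller, opposite in sign for the 2 genes, and did not pass the test. Selenbp1 differed by -0.68 at its own probe set (95% interval -1.23 to -0.14; limma adjusted p = 0.254) and by -0.58 at the Selenbp2-targeted one (95% interval -1.14 to -0.02; limma adjusted p = 0.351). Tmem87a differed by 1.13 (95% interval 0.22 to 2.04; limma adjusted p = 0.256). None of the 3 was called, where 2.02% of all probe sets were. The intervals are not adjusted for the number of probe sets, and a p that misses the threshold does not show that emN1 and anN1 were alike. The anN1 arrays had a part in the choice of the genes.

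The difference between emN1 and anN1 had the same sign in both array sets at each probe set. For the Selenbp1-targeted probe set it was -0.73 in set 1 and -0.63 in set 2, for the Selenbp2-targeted one -0.59 and -0.57, and for Tmem87a 1.67 and 0.59. The Tmem87a value of set 1 rests on the anN1 signal under the background limit. Selenbp1 was also lower in set 2 than in set 1, by similar amounts in both groups: set 2 minus set 1 was -0.87 in emN1 and -0.97 in anN1. For Tmem87a set 2 minus set 1 was -0.48 in emN1 and 0.59 in anN1, where the anN1 value again rests on that signal. The 2 wild-type arrays, both of set 2, differed from each other by 0.54 at the Selenbp1-targeted probe set, 0.48 at the Selenbp2-targeted one and 0.68 at Tmem87a.

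Measured by plain group means, emN1 was nearer anN1 than wild-type at all 3 probe sets. At the Selenbp1-targeted probe set the emN1 mean differed by -0.68 log2 units from anN1 and by -4.80 from wild-type. At the Selenbp2-targeted one these were -0.58 and -4.50, and at Tmem87a 1.13 and -3.94. Among the 964 probe sets at least 2-fold apart between the controls, 59.3% had emN1 nearer anN1. In array set 2 alone, which holds arrays of all 3 groups, it was nearer anN1 at the 3 members and at 51.8% of 923 such probe sets. With 3 probe sets for 2 genes, the count says little beside those shares.

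**Figure D2:**
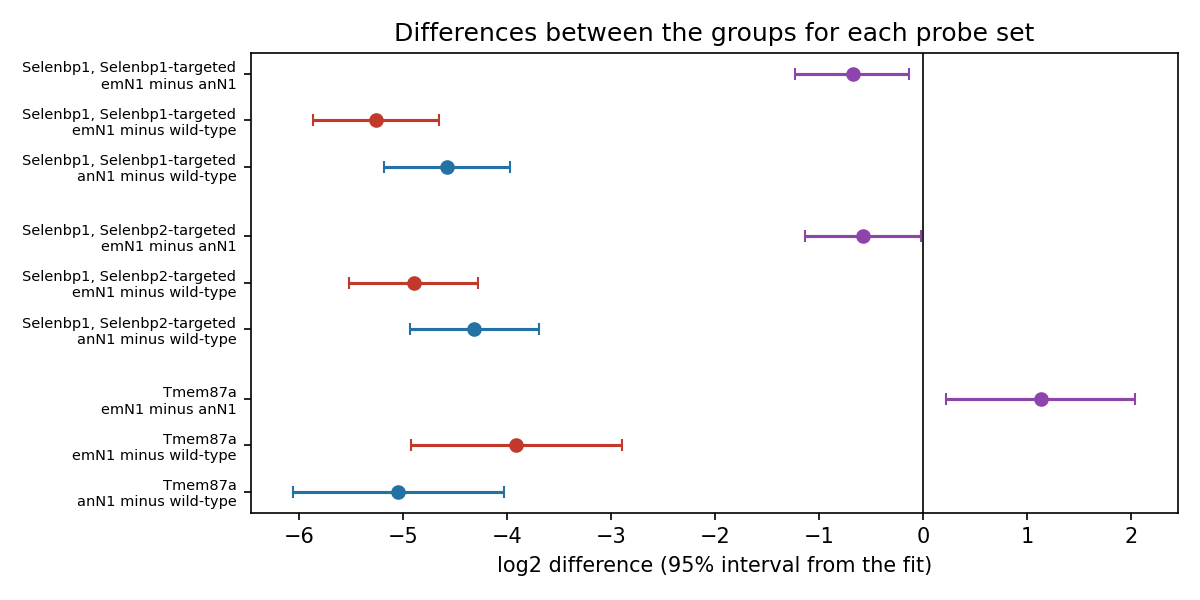
The log2 difference (points) with its 95% interval from the linear model (bars) for each probe set in the 3 comparisons. The differences of emN1 and of anN1 from wild-type lie between -5.26 and -3.92, and those between emN1 and anN1 between -0.68 and 1.13.

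The genes whose profiles over the 6 arrays were nearest to Selenbp1 (its own probe set), by the root mean square difference of mean-centred log2 signals, were Xist (0.77), Tmem87a (0.87), Cd99l2 (1.26), Mybpc1 (1.27) and Plppr3 (1.35). For Tmem87a they were Selenbp1 (0.83, at the Selenbp2-targeted probe set), Xist (1.09), Cd99l2 (1.25), Mylk3 (1.41) and Dbh (1.44). Selenbp1 and Tmem87a were both chosen for a large difference between anN1 and wild-type. Their nearness to each other follows from that choice. So in part does that of any gene with a large difference of that kind, such as Xist (-5.81 between anN1 and wild-type). Nothing is read from these ranks. Xist, the RNA that silences 1 X chromosome in female cells, and Cd99l2, an adhesion protein gene, are on chromosome X. Mybpc1, a myosin-binding protein gene of slow muscle, and Plppr3 are on chromosome 10. Cd99l2 gave 229 and 340 units in emN1, 249 and 363 in anN1, and 979 and 1943 in wild-type.

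Xist set the same arrays apart as the members did. One of its probe sets read 7.80 and 5.66 units in emN1 and 9.88 and 37.9 in anN1, all under background, against 16000 and 15916 in wild-type. The Xist probe set of the profile comparison read 202 and 183 units in emN1, 390 and 228 units in anN1, and 18376 and 12671 units in wild-type. Eif2s3y, a translation factor gene of the Y chromosome, was the reverse, with 13976 and 15890 units in emN1, 10723 and 15581 units in anN1, and 32.2 and 5.35 units in wild-type. Of the sex-linked genes measured, 3 Y-linked genes rose and Xist fell in emN1 against wild-type, and the same 4 passed in anN1 against wild-type. None of the 4 passed between emN1 and anN1. The levels therefore were those of male tissue in emN1 and anN1 and of female tissue in wild-type, so sex cannot be told apart from the comparison with wild-type for Selenbp1 or Tmem87a.

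The 3′ control probe sets for cre, the phage recombinase with which genes are deleted in chosen tissues, also set these arrays apart. The probe set AFFX-CreX-3_at gave 434 and 409 units in emN1 and 395 and 515 in anN1, against 62.4 and 79.0 in wild-type. The emN1 and anN1 values were above the background limit, and both wild-type values were below it. Of the 5′ probe sets, AFFX-CreX-5_at was under the limit on every array, with 71.1 and 101 units in emN1, 11.4 and 27.4 units in anN1, and 3.12 and 4.25 units in wild-type. The other 5′ probe set read 205 and 93.7 units in emN1, 124 and 187 units in anN1, and 11.0 and 33.4 units in wild-type. The 3′ cre signal was thus high where Selenbp1 and Tmem87a were low, and its part in their levels was not tested. Whether it came from RNA of the bulbs or from control RNA added to the samples was not tested either.

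**Figure D3:**
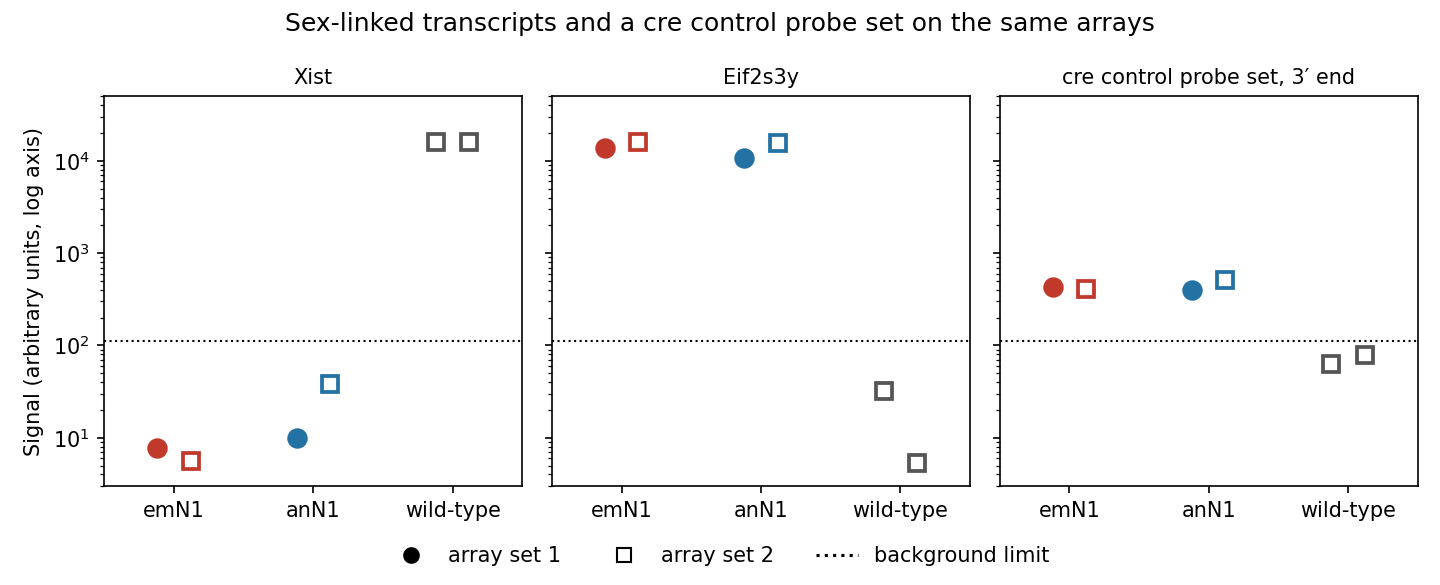
Signal (log axis, arbitrary units) of Xist (the probe set under background in emN1 and anN1), Eif2s3y and a cre control probe set on each array, 1 point per array, filled for array set 1 and open for array set 2; the dotted line is the background limit of 112. Xist was high in wild-type alone, while Eif2s3y and cre were above the limit in emN1 and anN1 alone.

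The large differences from wild-type at Selenbp1 and Tmem87a were not seen at the genes nearest to them. Over all 12609 genes other than the members, 297 were called higher and 108 lower between emN1 and wild-type, 13 and 1 between anN1 and wild-type, and 266 and 113 between emN1 and anN1. Of the 20 measured genes nearest to Selenbp1, 10 on each side, 0 passed limma between emN1 and wild-type and 0 between anN1 and wild-type, a count near those shares. Their medians were -0.10 and 0.02, against -0.02 and 0.01 over all genes, and they ranged from -1.08 to 1.10 between emN1 and wild-type and from -0.21 to 1.59 between anN1 and wild-type. The nearest measured genes, Psmb4 (a proteasome subunit) and Rfx5 (a factor of MHC class II genes), differed by -0.13 and -0.42 between emN1 and wild-type. Tchhl1, the farthest on 1 side, fell by 2.25 in emN1 against anN1 (SE 0.28; limma adjusted p = 0.0128). Of the 20 nearest to Tmem87a, 0 passed in either comparison with wild-type, with medians of 0.22 and 0.08. Vps39, of the vesicle fusion machinery, and Ganc, an alpha-glucosidase, on either side of Tmem87a, differed by -0.54 and -0.19 between emN1 and wild-type. Selenbp2 shares many of these neighbours. Among its own 20, Crct1, a cornified envelope gene, passed in both comparisons with wild-type, and it was higher in emN1 and in anN1.

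**Figure D4:**
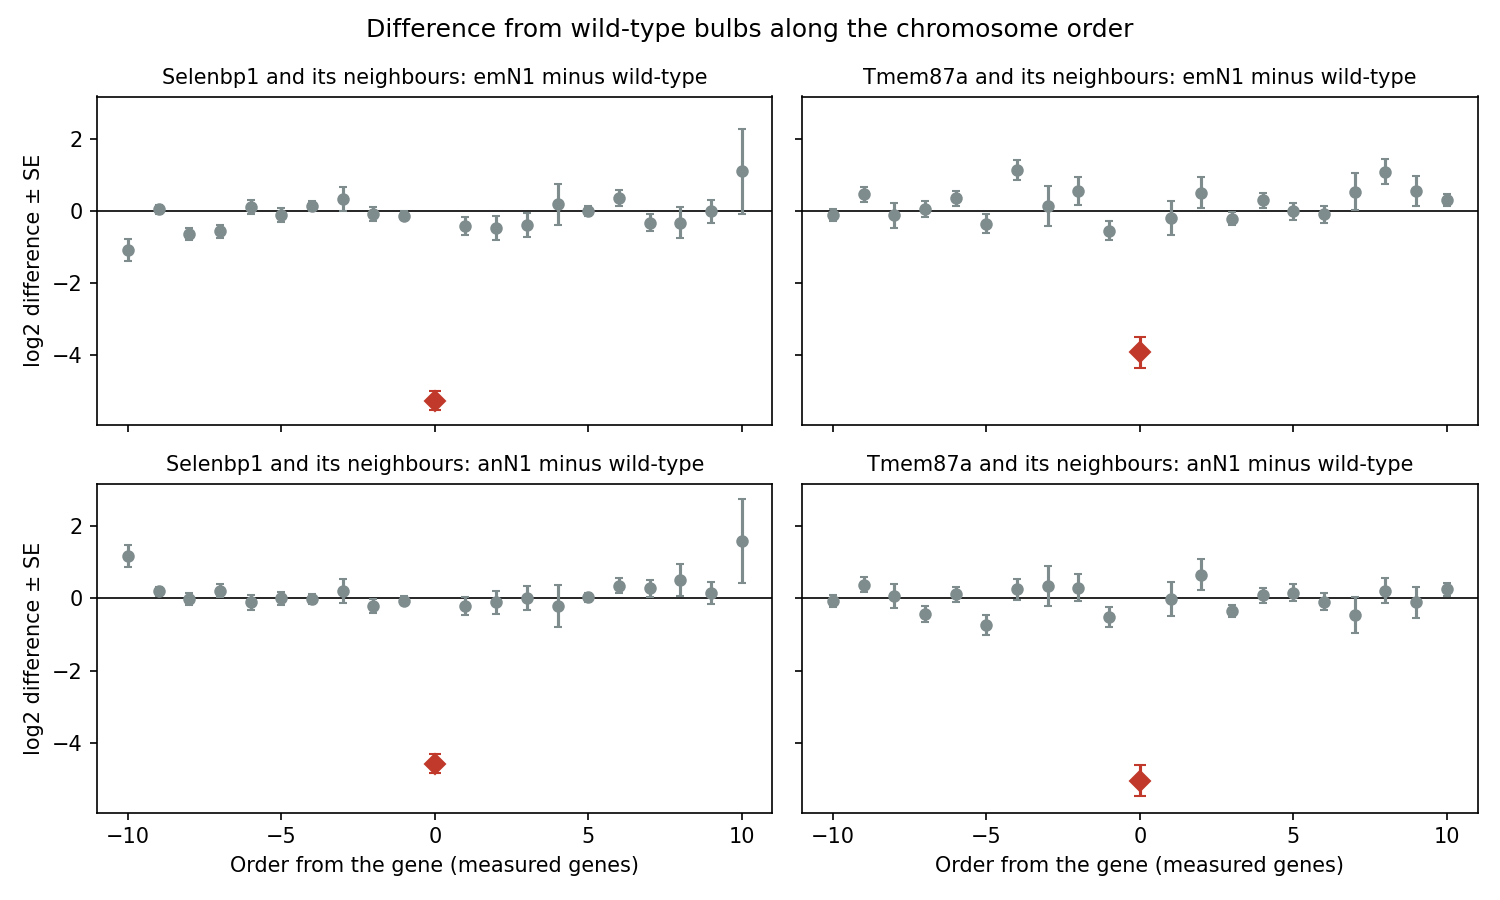
The log2 difference ± SE from wild-type of Selenbp1 (its own probe set) and Tmem87a (diamonds) and of the 10 nearest measured genes on each side (circles), in gene order, for emN1 (top row) and anN1 (bottom row). The circles lie between -1.08 and 1.59 and the diamonds between -5.26 and -3.92.

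Among other genes of sulphur and selenium metabolism 2 fell in emN1 against wild-type. Over all 12609 genes other than the members, 297 were called higher and 108 lower between emN1 and wild-type. Of 13 measured genes that make or clear sulphur compounds, 0 rose and 2 fell in emN1 against wild-type (median -0.15). In anN1 against wild-type 0 passed (median -0.11). With 13 genes nothing is read from these counts. The 2 that fell were Gsr and Ahcy. Gsr, glutathione reductase, fell by 1.71 (SE 0.23; limma adjusted p = 0.0151). Ahcy, which hydrolyses S-adenosylhomocysteine, fell by 0.68 (SE 0.12; limma adjusted p = 0.0415). In emN1 against anN1, Gsr fell by 1.16 (SE 0.20; limma adjusted p = 0.0404). Sqor, which oxidises hydrogen sulphide in mitochondria, gave 271 and 246 units in emN1, 321 and 109 in anN1, and 435 and 852 in wild-type, and did not pass. Of 21 measured selenoproteins and genes of selenium handling, 0 passed in any of the 3 comparisons. Gpx1, a selenium-dependent glutathione peroxidase, differed by 0.49 between emN1 and wild-type (SE 0.11; limma adjusted p = 0.0839).

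Among 6 measured relatives of Tmem87a and other seven-pass proteins of the secretory route, 1 fell in emN1 against wild-type. In anN1 against wild-type 0 passed. Over all 12609 genes other than the members, 108 were called lower between emN1 and wild-type. With 6 genes nothing is read from the count. The gene that fell was Wls, which carries Wnt proteins to the cell surface, by 0.80 (SE 0.12; limma adjusted p = 0.0248). Tmem87b, the closest relative of Tmem87a, gave 2465 and 3547 units in emN1, 3222 and 3379 in anN1, and 4068 and 3556 in wild-type. It differed by -0.21 between emN1 and wild-type (SE 0.19) and did not pass.

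Of 4 measured genes known to vary in copy number or by deletion between inbred strains (Nnt, Glo1, Ide and Alad), 0 passed in any comparison. Nnt, a mitochondrial transhydrogenase with a deletion in one common inbred strain, differed by 0.98 between anN1 and wild-type and 0.74 between emN1 and wild-type (SE 0.23 each). Its probe set gave 1147 and 1441 units in emN1, 1386 and 1678 in anN1, and 810 and 889 in wild-type. Whether this probe set lies in the deleted part was not tested. Of 6 such genes on the array, Klrd1 was under background on every array.

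Selenbp1 is known from human red blood cells and mouse liver, so markers of these and of other cells were read on the same arrays. In bulk RNA, fewer cells of a type and less RNA per cell cannot be told apart. Of 6 red blood cell genes on the array, Epb42 and Slc4a1 were under background on every array, and the summed signal of the 6 was 699 to 774 units in emN1, 522 to 703 in anN1 and 430 to 431 in wild-type. The 6 liver genes summed to 514 to 732 units in emN1, 446 to 536 in anN1 and 494 to 551 in wild-type, with Apoa1 and Fgb under background on every array. None of the kept genes of red blood cells (2), liver (2), adipocytes (4) or skeletal muscle (3) passed in any comparison. Adipocyte genes summed to 12236 to 18251 units in emN1, 15473 to 21086 in anN1 and 10962 to 11122 in wild-type, and muscle genes to 1723 to 2059 units in emN1, 1928 to 2200 in anN1 and 1748 to 1799 in wild-type. Of 10 dermal fibroblast genes 5 rose in emN1 against anN1 (median 1.15) and 3 rose in emN1 against wild-type (median 1.06), shares above those of all genes, while 0 passed in anN1 against wild-type. Col5a2, a fibrillar collagen, rose by 1.48 in emN1 against anN1 and 1.54 in emN1 against wild-type (limma adjusted p = 0.00688 and 0.0065). The summed signal of the 10 was 123553 to 153339 units in emN1, 75108 to 80753 in anN1 and 72598 to 96052 in wild-type. Of 4 sebaceous gland genes, Elovl3, a fatty acid elongase, rose by 2.06 in emN1 against anN1 (SE 0.21; limma adjusted p = 0.00808) and by 3.60 in emN1 against wild-type (SE 0.24; limma adjusted p = 0.0011), and the other 3 did not pass. The sebaceous list summed to 21011 to 23154 units in emN1, 13173 to 15366 in anN1 and 14753 to 14868 in wild-type. The part of these fibroblast and sebaceous gland gene differences in the levels of Selenbp1 and Tmem87a was not tested.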

How the data were processed

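The authors deposited linear intensity values, 1 per probe set. Per the submitters' processing notes MAS5 was used, and no version or setting of it is given in the sources. The trimmed mean of the deposited intensities was 1499 to 1500 on every array, and they were not rescaled. Gene symbols are those of the platform annotation (34958 with 1 symbol, 932 with several, 9211 with none). Gene order and promoters came from RefSeq tables of GRCm38.p6. The addend of 17.8 is the 10th percentile of all values, the upper 60% of probe sets by mean log2 signal were kept, and a gene other than the members was represented by its brightest kept probe set. Tests used limma 3.58.1 in R 4.3.3 (3 groups, array set term, 2 residual degrees of freedom, intensity trend, two-sided, threshold 0.05), with 64 control probe sets left out. On simulated data for emN1 against wild-type with 27022 probe sets, 98.9% of changes of 4 log2 units and 65.5% of changes of 2 were recovered. A run gave 12.7 false calls on average. The simulated arrays held no array set effect, unlike the design of the data. Replicate numbers of emN1 and anN1 are those of the array sets in the design text, and their replicate differences had an r of 0.38 over probe sets, which are not independent. Promoters were aligned locally with Biopython 1.88 and figures drawn with matplotlib 3.10.9. The named genes were all member probe sets, the 5 nearest profiles, neighbours, and genes of each list by size of change or role. Members and lists were chosen with earlier results of these data known.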

Additional observations from a re-analysis of the deposited data

Results flagged for a closer look

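The cre control probe sets are left out of every test, and those for the 3′ end gave signal in emN1 and anN1 arrays above both the background limit of 112 and the wild-type arrays. The lowest signal over the 4 emN1 and anN1 arrays was 395 units at AFFX-CreX-3_at and 349 units at AFFX-r2-P1-cre-3_at, against at most 79.0 and 29.2 units in wild-type.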

How the results depend on the processing

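Under 14 alternatives every member difference kept its sign. They are not 14 separate checks. Without emN1 replicate 1 or either anN1 array, the members' differences between emN1 and wild-type equalled those of array set 2 alone. Since the wild-type arrays served in choosing the genes, p-values and pass counts between emN1 and wild-type are given as description. Between emN1 and wild-type the Selenbp1-targeted probe set ranged from -5.53 to -4.80 (limma adjusted p from 1.52e-09 to 0.181) and passed in 12, the Selenbp2-targeted one from -5.14 to -4.50 (1.20e-08 to 0.209) and passed in 12, and Tmem87a from -4.26 to -3.11 (4.07e-05 to 0.420) and passed in 8. Between emN1 and anN1 none passed in any. emN1 was nearer anN1 at all 3 probe sets throughout. Raising signals to the background limit, chosen after seeing the data, gave -4.98 for Tmem87a between anN1 and wild-type. Counts over all probe sets moved far more. The number called by limma was 545 for emN1 minus anN1, 584 for emN1 minus wild-type and 20 for anN1 minus wild-type. Without the intensity trend it was 0 in each (3109, 3003 and 1118 at an unadjusted p under 0.05), and with no replicate block (no array set term) 42, 215 and 14. In array set 2 alone it was 0, 26 and 0 (1930, 2897 and 786 unadjusted). With 1 array left out it ranged from 0 to 1269, 0 to 1375 and 0 to 173. It was 0 for emN1 minus anN1 without any one emN1 or anN1 array (1937 to 3133 unadjusted), and 0 for emN1 minus wild-type without emN1 replicate 2 (2360 unadjusted). For anN1 minus wild-type it was 0 without any one emN1 or anN1 array (789 to 1375 unadjusted). The higher counts came without a wild-type array, where the lone one is assumed to vary like the other groups. The cause of these shifts was not tested. With 2 arrays a group, the number of arrays limits the precision.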
